A study of Mus musculus with 2 samples.

Results

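MHC class II molecules present peptides to CD4+ T cells, and 10 genes of this route were followed through the cell types of the liver, out of 32285 genes in the count files. The genes were chosen by name: *H2-Aa*, *H2-Ab1* and *H2-Eb1*, which encode class II chains, *Cd74*, the invariant chain, *H2-DMa* and *H2-DMb1*, the chains of the peptide exchange factor H2-DM, *Ciita*, the class II transactivator, *Ctss*, a protease that trims the invariant chain, and *Cd80* and *Cd86*, ligands of CD28. All 10 were in the files. The summed UMIs of *H2-Aa*, *H2-Ab1*, *H2-Eb1* and *Cd74* are called the chain sum.

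Nuclei came from livers of male C57BL6/J mice given a MASH diet for 5 months from 10 to 12 weeks of age, its fat at 40 kcal%, its fructose at 20 kcal% and its cholesterol at 2%, and were profiled by 3′ snRNA-seq. The library labelled Flox came from *Themis* flox/flox mice, and the library labelled HKO from *Themis* Alb-Cre mice, in which the albumin promoter directs Cre to hepatocytes. Each library pooled liver tissue of several mice of 1 genotype, so the groups had 1 library each, without replicates and without any test of one against the other, and genotype cannot be told apart from other differences between the libraries.

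In each pair of values the first is of the library labelled Flox and the second of that labelled HKO. The libraries held 9363 and 10748 barcodes, 58171337 and 40475938 UMIs and medians of 6216 and 2227.5 UMIs per barcode, and 27 barcode sequences occurred in both. After filtering, 8659 and 9801 nuclei remained. *Themis*, the targeted gene, was not lower under the label HKO: it was at 165 and 245 CPM in hepatocytes, a ratio of 1.49 (1.44 to 1.54), so every direction below is between the libraries as labelled. Which part of *Themis* was deleted is not given in the sources used here, and 3′ UMIs from outside it would still be counted, so this level does not settle the label. CPM, the counts-per-million scale, divides the UMIs of a gene by all UMIs of the summed nuclei of a type, and every ratio between libraries is that labelled HKO over that labelled Flox. Intervals are at the 95% level, exact Poisson for levels, exact conditional binomial for ratios and Clopper-Pearson for shares of nuclei. They cover counting error only, and UMIs of 1 nucleus are not independent of each other.

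Dendritic cells, B cells and macrophages are the professional presenting cells, and peptides are loaded on class II in their endosomes, where H2-DM swaps the remnant of the invariant chain for peptide. CIITA switches on the class II genes without binding DNA itself, through factors that sit on the X and Y boxes of their promoters, and interferon gamma can induce it in cells that otherwise lack class II.

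The promoters of 3 members are shown because they carry both boxes of the route through which CIITA acts. Sequences are from RefSeq on GRCm38.p6, run from 250 bases before to 50 after the annotated start, and were matched for 6 of the 10 members. Capitals mark matches on either strand to the Y box core GATTGG and to CTNGNAACT, a spelling of the X box that was chosen after the promoters had been seen.
*H2-Aa* at chr17:34287774-34288073, minus strand: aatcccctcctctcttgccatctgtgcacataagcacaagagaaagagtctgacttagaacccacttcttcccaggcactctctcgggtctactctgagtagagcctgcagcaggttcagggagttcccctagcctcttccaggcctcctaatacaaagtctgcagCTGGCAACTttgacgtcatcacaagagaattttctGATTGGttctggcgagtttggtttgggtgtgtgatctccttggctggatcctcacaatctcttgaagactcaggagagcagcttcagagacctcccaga
*H2-Eb1* at chr17:34305617-34305916, plus strand: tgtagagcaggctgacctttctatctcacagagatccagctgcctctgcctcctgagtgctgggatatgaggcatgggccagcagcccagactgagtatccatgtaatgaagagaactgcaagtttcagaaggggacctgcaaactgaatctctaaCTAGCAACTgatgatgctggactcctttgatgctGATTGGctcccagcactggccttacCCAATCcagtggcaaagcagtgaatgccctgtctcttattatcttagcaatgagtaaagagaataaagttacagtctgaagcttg
*H2-DMb1* at chr17:34152941-34153240, plus strand: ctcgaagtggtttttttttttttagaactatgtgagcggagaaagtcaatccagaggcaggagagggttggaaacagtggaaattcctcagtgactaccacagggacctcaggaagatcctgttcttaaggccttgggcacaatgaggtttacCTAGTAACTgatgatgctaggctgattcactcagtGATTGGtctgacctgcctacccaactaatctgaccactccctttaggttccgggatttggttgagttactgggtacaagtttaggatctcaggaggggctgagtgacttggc
The Y core lay 49, 60 and 62 bases before the start in *H2-Aa*, *H2-Eb1* and *H2-DMb1*, and the X spelling 84, 94 and 97 bases before it. The Y core was in 16.1% of all 32851 promoters of this length, the X spelling in 4.10% and both in 0.694%. Of the other matched members, *Cd80* and *Ctss* held neither the Y core nor the X spelling. *H2-DMa* held neither at its upstream start, and at its downstream start only a Y core, 199 bases before it. A match describes letters and is not a bound site.

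In the GENCODE annotation of GRCm38 the class II genes lie together: *H2-DMa* (chr17:34119541-34139101, plus strand), *H2-DMb1* (chr17:34153072-34160230, plus strand), *H2-Ab1* (chr17:34257689-34269419, plus strand), *H2-Aa* (chr17:34282744-34287823, minus strand) and *H2-Eb1* (chr17:34305867-34316674, plus strand). *Ciita* (chr16:10480059-10528418, plus strand) shares 329 exonic bases with *Dexi* on the opposite strand. *H2-DMa* shares 360 exonic bases with *Brd2*, also on the opposite strand. Whether reads were counted by strand is not given in the sources used here.

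Cell types were told by marker UMIs after clustering without the members or their pathway genes, and each name stands for a resemblance. There were 5729 and 4430 hepatocyte-like nuclei, 836 and 1195 stellate, 761 and 1233 endothelial, 497 and 1369 macrophage, 158 and 295 T cell, 135 and 547 cholangiocyte, 125 and 238 monocyte, 76 and 96 B cell, 43 and 78 dendritic, 32 and 29 plasmacytoid dendritic and 15 and 24 plasma cell nuclei. The libraries also differed within hepatocytes, where sub-clusters led by *Saa1* and by *Mup17* held 954 and 876 nuclei of the library labelled Flox against 48 and 42 of that labelled HKO.

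The chain sum was highest in dendritic nuclei, at 20529 CPM (19569 to 21524) and 13309.6 (12544 to 14109.5). B cells were at 10474 CPM (9728 to 11261) and 7145 (6533 to 7799) and monocyte-like nuclei at 7858 (7484 to 8245) and 7781 (7448 to 8126). B cells were above monocyte-like nuclei in the library labelled Flox, while in that labelled HKO their intervals overlapped. Macrophages were at 2701 CPM (2604 to 2801) and 3604 (3519.8 to 3689), and plasmacytoid dendritic nuclei at 3184 (2685 to 3749) and 2317 (1803 to 2933). Plasma cells, which shut down class II as they mature, were at 687 CPM (414 to 1073) and 971 (694 to 1322).

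The other types counted above were lower. A proliferating cluster (146 and 162 nuclei), a neutrophil-like sub-cluster (26 and 3) and unnamed clusters were not among these types. They held chain UMIs too, but no level is given for them. T cells were at 98.7 CPM (57.5 to 158) and 222 (165 to 292), cholangiocytes at 132 (90.7 to 185) and 134 (109 to 162), endothelial nuclei at 59.3 (45.6 to 75.9) and 147 (126 to 169.8) and stellate nuclei at 64.1 (52.2 to 77.9) and 77.0 (64.7 to 91.0). Hepatocytes were lowest in both libraries, at 14.0 CPM (12.9 to 15.1) and 24.99 (23.1 to 26.9). In the library labelled Flox the T cell interval overlapped those of cholangiocytes, endothelial and stellate nuclei, and the endothelial and stellate intervals overlapped each other. In that labelled HKO the endothelial interval overlapped those of cholangiocytes and T cells. The order of these neighbours is not set by these counts.

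**Figure D1:**
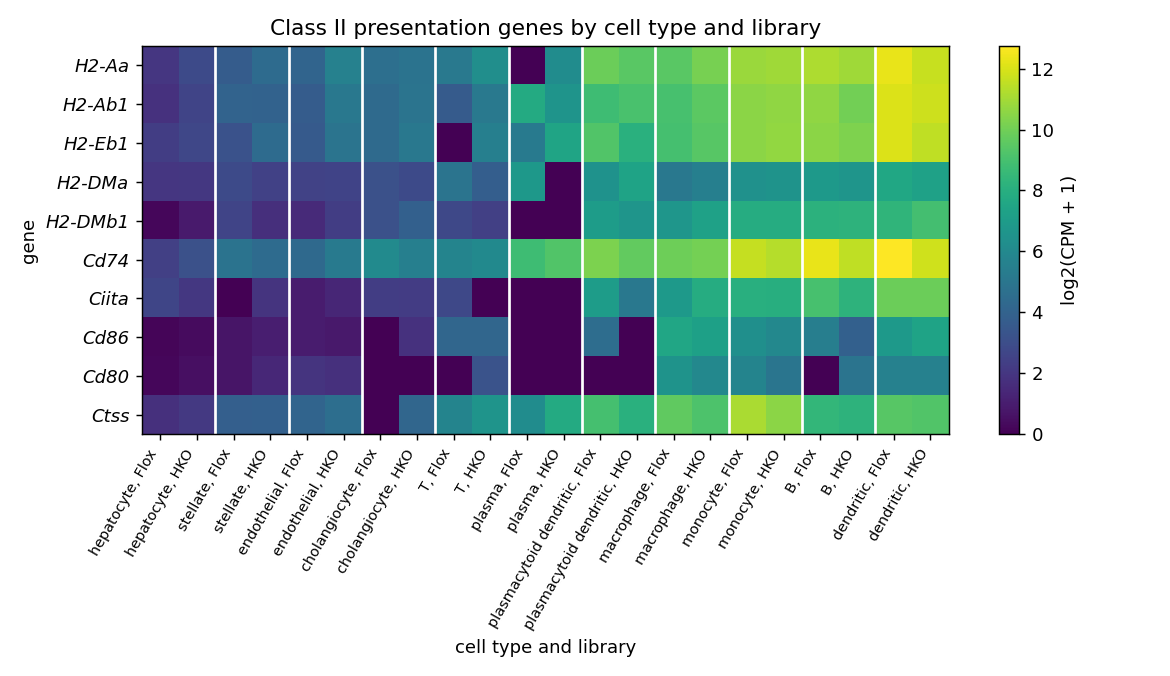
Level of the 10 members in 11 cell types and 2 libraries, as log2(CPM + 1). Levels are to be compared for 1 gene between cell types; *H2-Aa*, *H2-Ab1*, *H2-Eb1* and *Cd74* were far higher in dendritic nuclei than in hepatocytes in both libraries.

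Most chain UMIs came from few nuclei. In the library labelled Flox, macrophages made up 5.74% of nuclei and held 33.0% of the chain UMIs, and dendritic nuclei made up 0.497% and held 19.3%. In the library labelled HKO, macrophages made up 14.0% and held 55.0%, and dendritic nuclei 0.796% and 8.89%. Over all kept nuclei the chain sum was at 173 CPM (169.8 to 177) and 366 (359.9 to 373). That whole-library level moved together with the shares of cell types, and their part in it was not tested.

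**Figure D2:**
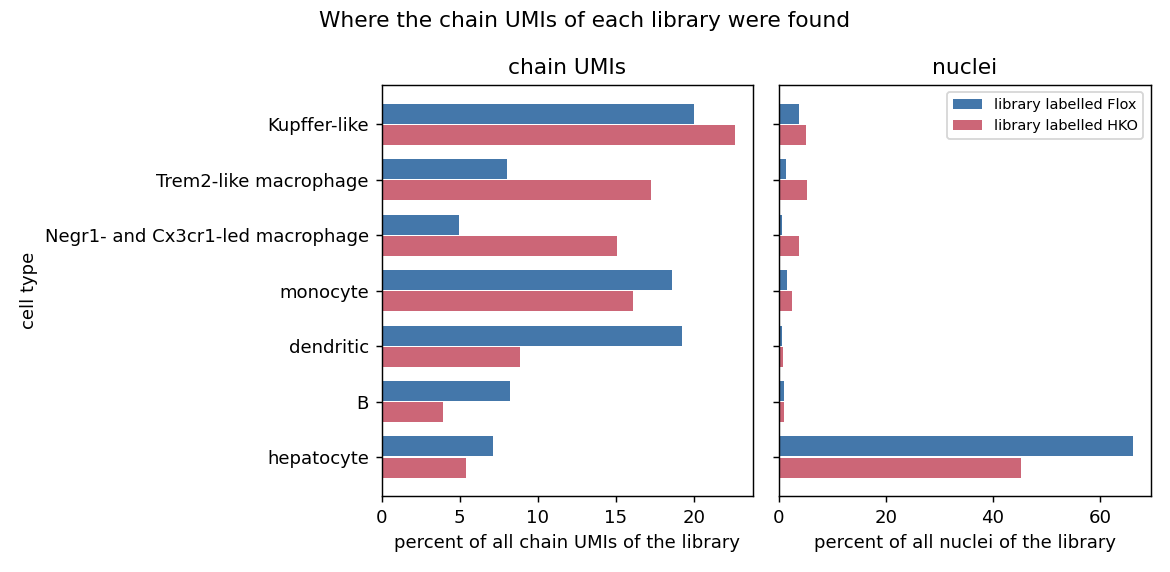
Percent of the chain UMIs of each library (left) and of its nuclei (right) found in 7 cell types. The macrophage sub-clusters, monocyte-like, dendritic and B cell nuclei held a larger part of the chain UMIs than of the nuclei, and hepatocytes a smaller one.

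The regulator and the other members had their own patterns. *Ciita* was at 934 CPM (738 to 1165) and 944 (748 to 1175) in dendritic nuclei, 530.1 (373 to 731) and 299 (185 to 458) in B cells, 261 (196 to 339) and 255 (198 to 324) in monocyte-like nuclei and 118 (98.2 to 139.9) and 236 (214 to 258) in macrophages. *Ctss* was at 2245 CPM (2048 to 2457) and 1489 (1345 to 1644) in monocyte-like nuclei, 682 (517 to 884) and 625 (468 to 818) in dendritic nuclei, 783 (732 to 838) and 588 (555 to 623) in macrophages and 344 (220.3 to 512) and 299 (185 to 458) in B cells. *Ctss* thus did not share the high rank of B cells seen in the chain sum. *Cd86*, which is present on resting presenting cells and rises on activation, was at 185 CPM (160.1 to 212) and 149 (132 to 167) in macrophages, and *Cd80*, the other CD28 ligand, at 93.8 CPM (76.5 to 114) and 60.9 (50.4 to 73.0).

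Over 11 cell types in 2 libraries, 22 points in all, the non-member genes whose log2(CPM + 1) profile was most like that of the chain sum were *Syk*, *Erp29*, *Wdfy4*, *Cybb*, *Unc93b1*, *Cd180*, *Ly86*, *Gm2a*, *Prkcd* and *Ep300*, with Pearson r from 0.897 to 0.933. The points share libraries and depth, and *Wdfy4* is also among the dendritic markers, so r is a description. By Spearman's correlation 5 of these 10 genes (*Syk*, *Erp29*, *Cybb*, *Gm2a* and *Ep300*) were again among the top 10, so the choice of the other 5 rests on the measure. Among members outside the sum, *Ctss* had an r of 0.899, *H2-DMb1* 0.868, *Ciita* 0.844, *H2-DMa* 0.801, *Cd86* 0.741 and *Cd80* 0.604. *Cd80* was the member least like the sum, at rank 513 of 12678 genes.

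In macrophages the libraries differed gene by gene. The chain sum was higher in the library labelled HKO, with a ratio of 1.33 (1.28 to 1.39), and so was *Ciita*, at 2.00 (1.64 to 2.45). Per nucleus the direction of the chain sum was the opposite, with 5911 (5699.6 to 6129) and 5097 (4978 to 5218) UMIs per 1000 macrophage nuclei, at median depths of 2094 and 1338 UMIs. Of the chains, *H2-Aa* had a ratio of 1.54 (1.42 to 1.68), *H2-Ab1* of 1.46 (1.32 to 1.61), *H2-Eb1* of 1.32 (1.20 to 1.46) and *Cd74* of 1.12 (1.04 to 1.21). For the exchange factor, the ratio was 1.48 (1.19 to 1.85) for *H2-DMb1* and 1.34 (0.900 to 2.04) for *H2-DMa*. *Ctss*, *Cd80* and *Cd86* had ratios below 1, at 0.751 (0.687 to 0.822), 0.650 (0.494 to 0.856) and 0.805 (0.670 to 0.969). Of the 10 members, 2 (*H2-Aa* and *Ciita*) were past 1.5-fold higher and 1 (*Cd80*) past 1.5-fold lower, where 5.53% and 11.9% of 7471 genes with at least 50 UMIs were. The median log2 ratio was 0.41 over the members and −0.08 over those genes. The summed macrophage markers had a ratio of 0.761 (0.740 to 0.783), dendritic markers of 1.10 (0.985 to 1.24), B cell markers of 0.686 (0.605 to 0.778), plasma cell markers of 2.59 (1.54 to 4.58), plasmacytoid dendritic markers of 2.89 (1.27 to 7.69) and hepatocyte markers of 0.716 (0.669 to 0.767) in the same nuclei, and their part was not tested.

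The macrophage total joined sub-clusters in different proportions. Kupffer-like nuclei, the resident macrophages, numbered 331 and 488, *Trem2*-like nuclei, of the kind known from injured and fatty liver, 116 and 520, and nuclei of a sub-cluster led by *Negr1* and also marked by *Cx3cr1* 50 and 361. In Kupffer-like nuclei the chain sum was at 2360.1 CPM (2252 to 2472) and 3743 (3607 to 3882), with a ratio of 1.59 (1.49 to 1.68). In *Trem2*-like nuclei it was at 2750.3 CPM (2552 to 2959) and 2661 (2551 to 2775), with a ratio of 0.968 (0.889 to 1.05). In the *Negr1*-led sub-cluster it was at 6062 CPM (5509.8 to 6656) and 5533 (5288 to 5787), with a ratio of 0.913 (0.823 to 1.01). In this clustering the interval of the Kupffer-like ratio lay above those of the other sub-clusters, both of which held 1. For the *Negr1*-led sub-cluster that depended on the clustering: its log2 ratio was −0.13, but 0.17 with nuclei of at least 500 detected genes and 0.59 without integration, the last within the interval of the Kupffer-like log2 ratio of 0.55 under the same setting. The *Trem2*-like log2 ratio was −0.05, with a range of −0.28 to 0.09 over the alternatives. In the library labelled Flox a single nucleus among these 116 held 121 of their 716 chain UMIs. The highest *Trem2*-like nucleus of that labelled HKO held 37. The ratio without that Flox nucleus was not computed. Leaving it out would raise the *Trem2*-like ratio, so the size of the contrast with Kupffer-like nuclei leans in part on this nucleus. So does the finding that the *Trem2*-like interval held 1.

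Within Kupffer-like nuclei, *H2-Aa* was at 592 CPM (539 to 649.9) and 1091 (1018 to 1167), with a ratio of 1.84 (1.64 to 2.07). *H2-Ab1* was at 469 CPM (422 to 521) and 826 (763 to 893), with a ratio of 1.76 (1.54 to 2.01), and *H2-Eb1* at 431 (385 to 480.1) and 716 (657 to 778), with a ratio of 1.66 (1.45 to 1.91). The 3 class II chains were therefore all higher in the library labelled HKO, and *Cd74* less so, with 868 and 1110.0 CPM and a ratio of 1.28 (1.15 to 1.42). *Ciita* was at 95.4 CPM (74.7 to 120.2) and 206 (175 to 240.3), with a ratio of 2.16 (1.62 to 2.89), and *H2-DMb1* at 75.5 (57.2 to 97.9) and 151 (125 to 181), with a ratio of 2.00 (1.44 to 2.79).

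The partner chain *H2-DMa*, with 30 and 35 UMIs, had a ratio of 1.15 (0.683 to 1.93) in Kupffer-like nuclei. *Ctss* went the other way, with 753 and 604 CPM and a ratio of 0.802 (0.708 to 0.909). The intervals of *Cd80*, 0.788 (0.553 to 1.12), and *Cd86*, 0.867 (0.682 to 1.10), held 1. Of the 10 members, 5 were past 1.5-fold higher (*H2-Aa*, *H2-Ab1*, *H2-Eb1*, *Ciita* and *H2-DMb1*) and 0 past 1.5-fold lower, beside 4.51% and 11.2% of 5252 genes. The median log2 ratio was 0.54 over the members and −0.07 over those genes.

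**Figure D3:**
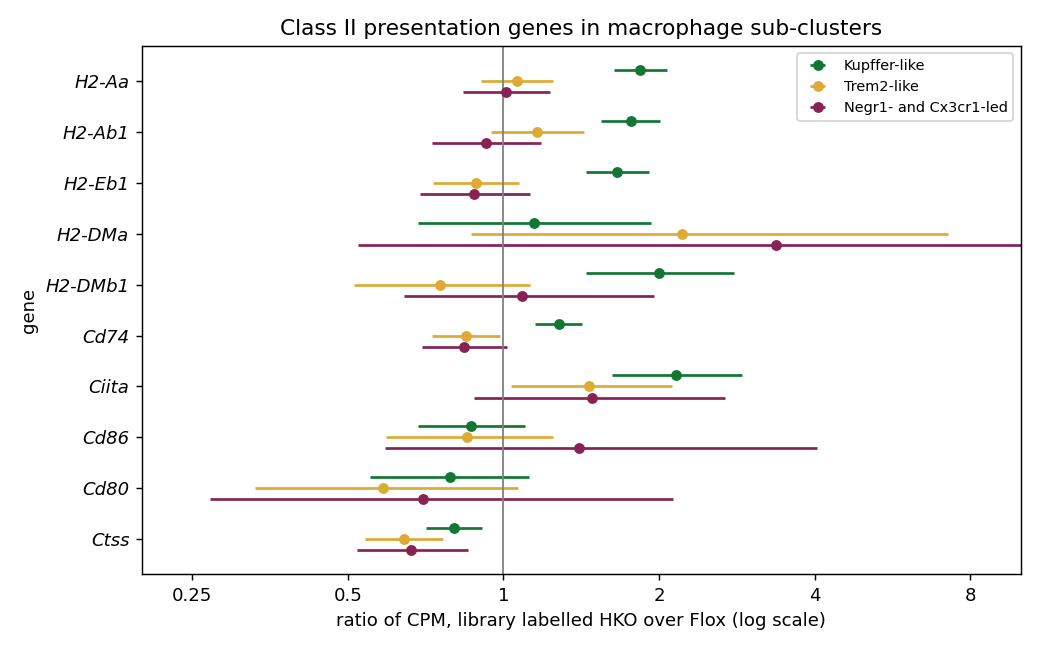
Ratio of CPM between the libraries (HKO over Flox, log scale) for the 10 members in 3 macrophage sub-clusters, with 95% counting intervals, of which that of *H2-DMa* in the *Negr1*-led sub-cluster runs past the axis. *H2-Aa*, *H2-Ab1*, *H2-Eb1*, *H2-DMb1* and *Ciita* lay above 1 in Kupffer-like nuclei, and *Ctss* below 1 in all 3 sub-clusters.

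More Kupffer-like nuclei held a chain UMI in the library labelled HKO. After each nucleus was thinned to 500 UMIs, the share was 46.2% (40.8 to 51.8) and 66.6% (62.2 to 70.8), and it was 71.0% and 88.9% unthinned, at median depths of 2151 and 1478 UMIs. In hepatocytes, which serve as background, the thinned share was 0.716% (0.514 to 0.970) and 1.17% (0.878 to 1.54) and the unthinned one 8.36% and 13.0%, at median depths of 7450 and 5830.5 UMIs. The Kupffer-like shares were far above that background. Counted per 1000 nuclei rather than in CPM, the libraries were closer, at 5381 (5134 to 5636) and 5893 (5680 to 6113) chain UMIs. The macrophage markers of Kupffer-like nuclei had a ratio of 0.893 (0.862 to 0.925), dendritic markers of 1.17 (1.01 to 1.35), B cell markers of 0.850 (0.730 to 0.990) and plasma cell markers, with 12 and 33 UMIs, of 2.70 (1.36 to 5.74), and their part in the chain difference was not tested.

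In *Trem2*-like nuclei *Ciita* had a ratio of 1.47 (1.04 to 2.12) and *Ctss* of 0.642 (0.539 to 0.765). Of the 9 members with at least 50 UMIs there, 0 were past 1.5-fold higher and 2 lower (*Ctss* and *Cd80*), beside 8.48% and 11.2% of 4104 genes. In the *Negr1*-led sub-cluster *Ciita* had a ratio of 1.48 (0.876 to 2.69) and *Ctss* of 0.664 (0.521 to 0.854). The regulator had a ratio above 1 in all 3 sub-clusters, with an interval that held 1 in the *Negr1*-led one.

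Dendritic nuclei, few as they were, had a lower chain sum in the library labelled HKO, with a ratio of 0.648 (0.601 to 0.699). *Cd74* was at 6847 CPM (6297 to 7432) and 3634 (3239.6 to 4064), with a ratio of 0.531 (0.461 to 0.611), whereas *Ciita* had a ratio of 1.01 (0.731 to 1.40). *H2-Aa* had a ratio of 0.649 (0.555 to 0.757), *H2-Ab1* of 0.789 (0.674 to 0.922), *H2-Eb1* of 0.693 (0.587 to 0.817) and *H2-DMb1* of 1.53 (0.924 to 2.59). All 4 chain genes had ratios below 1, while the intervals of *Ciita* and *H2-DMb1* held 1. Of 7 members with at least 50 UMIs, 1 was past 1.5-fold higher (*H2-DMb1*) and 2 lower (*H2-Aa* and *Cd74*). Beside them, 15.53% and 14.96% of 528 genes were past 1.5-fold higher and lower. Per 1000 dendritic nuclei there were 39884 (38018 to 41817) and 14462 (13629.8 to 15331) chain UMIs, at median depths of 1633 and 1044 UMIs per nucleus. Dendritic nuclei led by *Xcr1*, a receptor of cross-presenting dendritic cells, numbered 33 and 69 and had a ratio of 0.643 (0.593 to 0.697). *Cd209a* and *Flt3* were also among the leading genes of that sub-cluster, so its ratio is not that of cross-presenting cells picked out alone. Dendritic nuclei marked by *Ccr7*, the receptor of migrating dendritic cells, numbered 10 and 9 and had a ratio of 0.212 (0.145 to 0.302). They held 375 and 34 chain UMIs, with medians of 6.5 and 2 per nucleus. A single nucleus of the library labelled Flox held 144 of the 375, so this ratio rests on few nuclei and its interval is too narrow.

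B cells were lower in the chain sum as well, with a ratio of 0.682 (0.608 to 0.765), and *Ciita* had 37 and 21 UMIs and a ratio of 0.565 (0.314 to 0.991) there. Of 5 members with at least 50 UMIs, 0 were past 1.5-fold higher and 3 lower (*H2-Ab1*, *Cd74* and *Ciita*), beside 9.74% and 11.4% of 431 genes. In the same B cell nuclei macrophage markers had a ratio of 0.320 (0.133 to 0.697), plasma cell markers of 0.640 (0.430 to 0.944), hepatocyte markers of 0.680 (0.538 to 0.856) and the B cell markers themselves of 0.851 (0.774 to 0.934), and their part was not tested. In monocyte-like nuclei the chain sum had a ratio of 0.990 (0.928 to 1.06). There, of 7 members, 0 were past 1.5-fold higher and 1 lower, *Ctss*, at 0.663 (0.578 to 0.760), beside 7.18% and 11.4% of 2062 genes.

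Free RNA was judged from hepatocytes, in which class II is not expected. Per 1000 nuclei, hepatocytes held 111 (103 to 120.0) and 154 (143 to 166) chain UMIs, endothelial nuclei 82.8 (63.6 to 106) and 148 (128 to 172), stellate nuclei 121 (98.4 to 147) and 115 (97.0 to 136) and T cells 108 (62.7 to 172) and 173 (129 to 227). Cholangiocytes held 244 (168 to 343) and 194 (159 to 234) and macrophages 5911 (5699.6 to 6129) and 5097 (4978 to 5218). Against hepatocytes, the chain UMIs per nucleus stood at factors of 0.746 (0.566 to 0.967) and 0.961 (0.812 to 1.13) in endothelial, 1.09 (0.873 to 1.34) and 0.748 (0.618 to 0.899) in stellate and 0.969 (0.561 to 1.56) and 1.12 (0.825 to 1.49) in T cell nuclei, none of them above 1 beyond counting error. Their higher CPM went with lower depth, medians of 1303 and 947 UMIs in endothelial nuclei against 7450 and 5830.5 in hepatocytes. Macrophage markers per nucleus stood at factors of 0.473 and 0.581 against hepatocytes in endothelial, 0.518 and 0.595 in stellate and 0.437 and 0.671 in T cell nuclei. B cell markers stood at 1.03 and 2.08, at 3.29 and 2.47 and at 0.711 and 1.52 in the same order. The part of free RNA in these types was not tested.

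**Figure D4:**
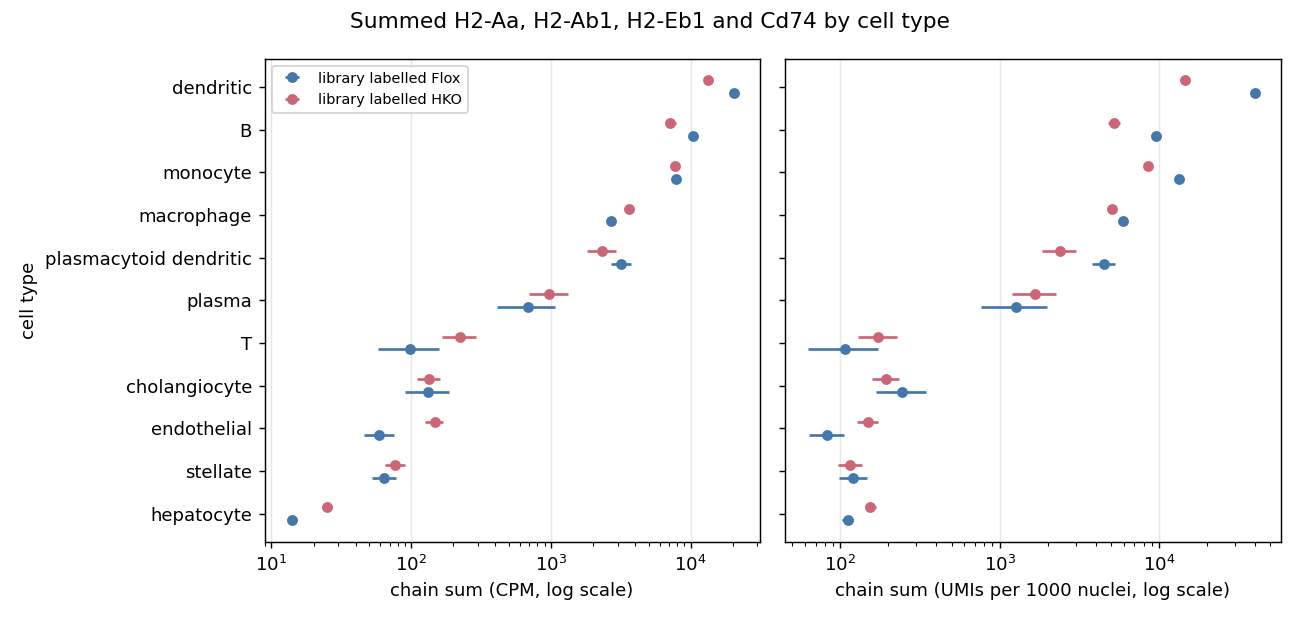
Chain sum by cell type and library, in CPM and in UMIs per 1000 nuclei, on log scales with 95% counting intervals. Hepatocytes were lowest in CPM, but per nucleus they lay among endothelial, stellate and T cell nuclei.

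Within hepatocytes, the chain UMIs per 1000 nuclei went up with depth, from 75.4 in the shallowest to 157 in the deepest of 3 equal groups of the library labelled Flox and from 131 to 182 in that labelled HKO. In CPM, the same groups were at 15.9 and 13.6 in the former and 39.3 and 19.4 in the latter.

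Cholangiocytes, which can gain class II in inflamed ducts, held more chain UMIs per nucleus than hepatocytes, by factors of 2.20 (1.502 to 3.12) and 1.26 (1.01 to 1.54). Macrophage markers per nucleus stood at factors of 1.08 (0.760 to 1.49) and 1.45 (1.23 to 1.70), and B cell markers at 2.08 and 2.00. In the library labelled HKO 1 cholangiocyte nucleus, with immune marker UMIs, held 7 of 106 chain UMIs. Without nuclei of 5 or more chain UMIs, cholangiocytes held 244 and 181 per 1000 nuclei and hepatocytes 92.6 and 146. The part of free RNA was not tested. The cholangiocyte chain sum stood at 4.88% (3.35 to 6.87) and 3.71% (3.03 to 4.49) of the macrophage CPM, where the macrophage markers stood at 1.95% and 3.74%. The B cell markers stood at 4.74% and 7.42% of their own level in macrophages. That level was low, at 421 and 289 CPM against 13898 and 11822 in B cells, so these percents are not shares of the B cell level. With nuclei typed on their own marker UMIs the chain sum stood at 3.03% and 1.99% instead. *Ciita* had 1 and 3 UMIs in cholangiocytes, and *Cd80* had none in either library. The chain sum had a ratio between libraries of 1.01 (0.680 to 1.55), and the thinned share of nuclei with a chain UMI was 5.93% (2.59 to 11.3) and 6.22% (4.34 to 8.58).

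Endothelial nuclei, most of them of the sinusoids, which take up antigen from blood, had a chain sum at 2.20% (1.68 to 2.82) and 4.08% (3.50 to 4.72) of the macrophage CPM, beside 1.14% and 2.15% for macrophage markers. The B cell markers stood at 3.13% and 11.1% of their own low level in macrophages, not of that in B cells. The chain sum was higher in the library labelled HKO, with a ratio of 2.48 (1.85 to 3.35). Of 3 members with at least 50 UMIs, 3 were past 1.5-fold higher (*H2-Aa*, *H2-Ab1* and *Cd74*) and 0 lower, beside 4.9% and 8.78% of 6673 genes. In the same nuclei macrophage markers had a ratio of 1.44 (1.11 to 1.88), B cell markers of 2.44 (1.30 to 4.85), plasma cell markers of 3.26 (2.04 to 5.41) and dendritic markers of 0.677 (0.597 to 0.767), and their part was not tested. Of the dendritic marker UMIs, 25.6% and 20.5% lay in endothelial nuclei and 11.2% and 10.1% in dendritic nuclei. That list was thus not limited to dendritic nuclei. *Ciita* had 1 and 2 UMIs in endothelial nuclei, too few to compare.

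A *Gja5*-led endothelial sub-cluster, of a gene of arterial endothelium, had a chain sum of 290.1 CPM (186 to 432) and 425 (299.5 to 586). The direction between the libraries depended on the doublets, with a log2 ratio of 0.55 without and −0.85 with them, both with an interval that held 0. The level rested on few nuclei: in the library labelled Flox, 1 of 60 nuclei held 17 of 24 chain UMIs, and in that labelled HKO 2 of 85 held 23 of 37. Each of these nuclei also held at least 3 UMIs of immune markers. Without nuclei of 5 or more chain UMIs, all endothelial nuclei stood at 43.4 and 119 CPM.

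Hepatocytes held *Ciita* and *H2-DMa* in another proportion to the chains than macrophages did. *Ciita* was at 41.5 (36.4 to 47.2) and 19.4 (15.5 to 24.0) UMIs per 1000 hepatocyte nuclei, against 1.31 (0.0333 to 7.32) and 1.62 (0.196 to 5.86) in endothelial nuclei. Per 100 chain UMIs, there were 37.4 (32.1 to 43.5) and 12.6 (9.93 to 15.8) *Ciita* UMIs in hepatocytes and 4.36 (3.62 to 5.201) and 6.53 (5.93 to 7.19) in macrophages. *H2-DMa* was at 24.6 (20.7 to 29.0) and 19.6 (15.7 to 24.2) UMIs per 1000 hepatocyte nuclei and 6.57 (2.13 to 15.3) and 4.87 (1.79 to 10.6) per 1000 endothelial nuclei. Hepatocyte nuclei were the deeper ones, and in CPM only *Ciita* kept this order. In CPM *Ciita* was at 5.24 and 3.14 in hepatocytes and 0.942 and 1.61 in endothelial nuclei. *H2-DMa* was at 3.10 and 3.18 CPM in hepatocytes and, with 5 and 6 UMIs, 4.71 and 4.82 in endothelial nuclei. Per 100 chain UMIs *H2-DMa* was at 22.2 (18.3 to 26.6) and 12.7 (10.1 to 15.9) in hepatocytes and 1.23 (0.856 to 1.70) and 1.23 (0.985 to 1.52) in macrophages.

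These numbers per 100 chain UMIs differed between hepatocytes and macrophages beyond counting error, and the part of free RNA in them was not tested. *H2-DMb1*, the partner of *H2-DMa*, had only 8 and 24 UMIs in hepatocytes. The genes that overlap *Ciita* and *H2-DMa* on the other strand were present in hepatocytes, *Dexi* at 40.9 and 32.7 CPM and *Brd2* at 148 and 210.4 CPM. In endothelial nuclei *Dexi* was at 19.8 and 17.7 CPM and *Brd2* at 132 and 144 CPM. The part of the overlaps in the counts was not tested.

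Between the libraries, *Ciita* was lower in hepatocytes of that labelled HKO, with a ratio of 0.599 (0.463 to 0.770), and the chain sum was higher, at 1.78 (1.60 to 1.99). *H2-DMa* had a ratio of 1.02 (0.774 to 1.35), and *Dexi* of 0.801 (0.739 to 0.868). Of 7 members with at least 50 UMIs, 3 were past 1.5-fold higher (*H2-Aa*, *H2-Ab1* and *Cd74*) and 1 lower (*Ciita*), beside 10.1% and 11.9% of 13143 genes. In hepatocytes macrophage markers had a ratio of 1.09 (1.01 to 1.18), B cell markers of 1.12 (0.815 to 1.54), plasmacytoid dendritic markers of 4.15 (3.58 to 4.84), dendritic markers of 0.751 (0.636 to 0.886) and plasma cell markers of 0.668 (0.6003 to 0.743), and their part was not tested. Of the plasmacytoid dendritic marker UMIs, 29.9% and 54.3% lay in hepatocytes and 47.1% and 20.4% in plasmacytoid dendritic nuclei. Of the dendritic marker UMIs, 21.1% and 9.62% lay in hepatocytes and 11.2% and 10.1% in dendritic nuclei. These lists were thus not limited to immune nuclei, and the source of their UMIs in hepatocytes was not tested.

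An interferon-responsive hepatocyte sub-cluster of 146 and 179 nuclei, led by *Rsad2* and *Cxcl10*, stood above other hepatocytes, at 99.2 CPM (82.7 to 118) and 61.4 (47.8 to 77.8). The other hepatocytes held 510 and 615 chain UMIs in 5583 and 4251 nuclei. The sub-cluster was also marked by 7 of 10 macrophage, 7 of 9 endothelial and 7 of 9 stellate markers. *Igkc* was among its leading genes, and the part of other cell types in it was not tested. Within this sub-cluster 8 nuclei held 106 of 126 chain UMIs in the library labelled Flox, and 2 held 37 of 69 in that labelled HKO. These were all the hepatocyte nuclei with 5 or more chain UMIs, and each also held at least 3 immune marker UMIs. The other nuclei of the sub-cluster stood at 17.8 and 28.9 CPM.

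Other genes of the pathway mostly stayed within 1.5-fold in macrophages. Of 10 further class II and peptide loading genes, 4 had under 50 UMIs, 5 were within it or had an interval that held 1, and 1 was lower: *Ifi30*, a thiol reductase of the endosome, at 264 and 152 CPM with a ratio of 0.575 (0.487 to 0.679). Of 9 class I presentation genes, 1 was lower, *H2-D1*, a class I heavy chain, at 0.641 (0.588 to 0.700), and 0 were higher, where 11.9% and 5.53% of all macrophage genes were past 1.5-fold whatever their interval. Of 7 class II transcription factors 3 had under 50 UMIs, and of 7 interferon gamma signal genes 1 did; none of the others was past 1.5-fold with an interval that left out 1. *Rfx5*, a subunit of the factor that binds the X box, had a ratio of 1.57 (0.971 to 2.61) in all macrophages, and in Kupffer-like nuclei it was higher, with 18 and 34 UMIs and a ratio of 1.85 (1.02 to 3.49), and *Ifi30* and *H2-D1* were lower, at 0.620 (0.497 to 0.771) and 0.655 (0.581 to 0.737). *H2-D1* was also lower in the *Negr1*-led sub-cluster, at 0.580 (0.440 to 0.772).

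In *Trem2*-like nuclei *Creb1*, a factor of the class II promoters, had a ratio of 0.658 (0.4999 to 0.871) and *Irf1*, which acts on *Ciita* downstream of interferon gamma, of 0.548 (0.398 to 0.760). In hepatocytes *Ifngr1*, a chain of the interferon gamma receptor, was higher at 1.70 (1.52 to 1.91), as was *Icam1*, an adhesion ligand, at 1.82 (1.66 to 2.01), and *Cd4*, the co-receptor that binds class II, was lower, with 66 and 14 UMIs and a ratio of 0.352 (0.183 to 0.633). *Ifngr1* was higher in endothelial nuclei too, at 1.52 (1.10 to 2.12), and *Nfyb*, a subunit of the Y box factor, was lower there, at 0.426 (0.243 to 0.726). In dendritic nuclei *Ifi30*, *Creb1*, *H2-D1* and *B2m*, the class I light chain, were lower, at 0.616 (0.377 to 0.992), 0.493 (0.263 to 0.891), 0.525 (0.390 to 0.701) and 0.488 (0.335 to 0.701). Of the 528 dendritic genes with at least 50 UMIs, 14.96% were past 1.5-fold lower whatever their interval.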

How the data were processed

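The authors deposited raw UMI counts per gene and barcode, made with Cell Ranger 8.0.1 on GRCm38 with intronic reads excluded. Nuclei with at least 300 detected genes were kept, and the top-ranked Scrublet doublets (scanpy 1.11.5) were removed at 0.8% per 1000 barcodes (701 and 920). Seurat 5.3.0 (R 4.3.3) joined both libraries by CCA with 3000 variable features, 15 components and a resolution of 0.2, members and pathway genes left out of the features, and immune (resolution 0.5), endothelial and hepatocyte nuclei were clustered again. A marker counted with at least 10 UMIs and 1.5 times the reference CPM, after a prior of 5 CPM, and a name needed 3 such markers, except that the *Negr1*-led sub-cluster was taken as macrophages from at least 60% of the macrophage markers against all broad clusters. Naming rules, leading-gene sub-clusters and the removal of *Kmo* and *Sdc1* from marker lists were settled after the clusters had been seen. The members and lists were chosen with earlier results of these data known.

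UMIs were summed per type and library. Log2 ratios used a pseudocount of 1 CPM. Named genes were all members, pathway genes with at least 50 UMIs in a type and a ratio past 1.5-fold whose interval left out 1, of which the text gives those in macrophages, dendritic, endothelial and hepatocyte nuclei, and the 10 non-members with at least 200 UMIs and the highest Pearson r. Fold counts and intervals were tested on simulated data. Alternatives included edgeR 4.0.16 TMM factors, and no count model was fitted.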

Additional observations from a re-analysis of the deposited data

How the results depend on the processing

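No paired analysis was possible because each group had 1 library, and no replicate could be left out. Of the values recomputed under alternatives, 274 moved by less than their counting interval, 77 moved by more and 0 ratios whose interval left out 1 changed direction. The log2 ratio of the chain sum ranged from 0.55 to 0.71 in Kupffer-like, 0.26 to 0.53 in all macrophage, 0.90 to 1.34 in endothelial, 0.54 to 1.08 in hepatocyte and −0.34 to 0.29 in cholangiocyte nuclei. For hepatocytes it was 0.79, against 1.03 without integration, 1.08 at a resolution of 0.4 and 0.54 with a pseudocount of 10 CPM. For macrophages it was 0.42, against 0.27 with nuclei typed on their own marker UMIs, 0.26 without nuclei holding a marker UMI of another immune type and 0.53 with TMM factors. Ratios near 1 turned direction between settings: the log2 ratio ranged from −0.13 to 0.59 in the *Negr1*-led sub-cluster, −0.28 to 0.09 in *Trem2*-like and −0.85 to 0.55 in *Gja5*-led endothelial nuclei. For Kupffer-like nuclei it was 0.67, against 0.55 without integration. As a percent of the macrophage CPM, typing nuclei on their own marker UMIs gave 1.495% and 3.06% in endothelial, 3.03% and 1.99% in cholangiocyte and 0.344% and 0.559% in hepatocyte nuclei. Leaving out nuclei with a marker UMI of another immune type gave 1.66% and 2.60% in endothelial and 0.369% and 0.577% in hepatocyte nuclei. With doublets kept it was 5.44% in cholangiocytes of the library labelled HKO and 0.590% and 0.851% in hepatocytes. Without integration hepatocytes were at 0.590% and 0.910%, at a resolution of 0.4 at 0.893% in the library labelled HKO, and without the interferon-responsive sub-cluster at 0.428% in that labelled Flox. The cause of these shifts was not tested. With minimums of 20 and 200 in place of 50 UMIs, macrophage genes past 1.5-fold numbered 807 and 108 in place of 413 higher and 1460 and 249 in place of 891 lower, and monocyte genes 595 and 16 in place of 148 higher and 773 and 24 in place of 236 lower. In hepatocytes 200 UMIs gave 830 in place of 1321 higher. For Kupffer-like nuclei they were 591 and 40 in place of 237 higher and 1278 and 97 in place of 588 lower, with 5 and 4 members higher in place of 5. For *Trem2*-like nuclei they were 868 and 40 in place of 348 higher and 1202 and 60 in place of 459 lower, for endothelial nuclei 791 and 49 in place of 327 higher and 1138 and 108 in place of 586 lower, and for B cells 170 and 7 in place of 42 higher and 266 and 3 in place of 49 lower. Plasmacytoid dendritic nuclei without another immune type's marker UMIs (1 and 4 nuclei, 0 and 4 chain UMIs) gave no ratio, the *Negr1*-led sub-cluster was not found with doublets kept, and monocyte-like nuclei and sub-clusters had no class when nuclei were typed on their own marker UMIs. Hepatocytes without the interferon-responsive sub-cluster, the separate macrophage sub-clusters, sums without nuclei of 5 or more chain UMIs and the shortened marker lists were chosen after seeing the data. Depth limits *Cd80* and *Cd86*, which had at most 12 UMIs per library in each of the hepatocyte, cholangiocyte, endothelial, stellate and T cell types.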
